A study of Rattus norvegicus with 4 samples.

Results

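The genes described here are Insrr and Sort1, each encoding a membrane receptor, in rat INS-1 cells after a week in high glucose. They are 2 of 14557 genes with a single symbol on the array, and both were chosen by their log2 difference between the glucose groups on these same arrays. Each gene was read by 1 probe set, 17739640 for Insrr and 17741886 for Sort1, and 0 further probe sets named either of them. INS-1 is a rat insulinoma line that secretes insulin and serves as a stand-in for pancreatic beta cells. It was cultured for 7 days either in 11.2 mM glucose (n = 2 arrays) or in 22.4 mM glucose (n = 2 arrays), with no other treatment, genotype or agent named in the labels. The labels number the arrays of each group as replicates 1 and 2 without saying whether they were separate cultures, so p-values cover only how far these arrays differ, a spread that may be technical.

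Insrr, the insulin receptor-related receptor, is the third member of the receptor tyrosine kinase family formed with the insulin receptor Insr and the IGF-1 receptor Igf1r. It binds neither insulin nor the insulin-like growth factors and is known as a sensor that is activated when the fluid outside the cell turns alkaline, with expression in kidney, islets and some neurons. Sort1 encodes sortilin, a receptor with a VPS10 domain that carries cargo between the trans-Golgi network, the cell surface, endosomes and lysosomes. Sortilin binds neurotensin, progranulin, prosaposin, lipoprotein lipase and, together with the receptor Ngfr, the proforms of neurotrophins. In fat and muscle cells it is also a component of the vesicles that store the glucose transporter GLUT4.

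A promoter was matched in the RefSeq table for 1 of the 2 genes, Sort1. It is shown because Sort1 is a gene on which the results turn, from 250 bases before to 50 bases after the start used in that table, at chr2:198612245-198612544 on the plus strand of build GRCr8. Capitals mark CCAAT boxes and a GC box.
Sort1 promoter: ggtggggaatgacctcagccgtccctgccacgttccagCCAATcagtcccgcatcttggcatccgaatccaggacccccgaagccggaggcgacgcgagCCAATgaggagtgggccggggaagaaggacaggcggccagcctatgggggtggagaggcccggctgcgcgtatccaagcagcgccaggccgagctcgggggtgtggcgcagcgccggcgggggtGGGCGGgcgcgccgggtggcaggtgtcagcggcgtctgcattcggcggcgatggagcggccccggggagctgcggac

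The Sort1 window was 72.3% G and C, against a median of 51.7% over the 33469 windows of the table, and held 33 CpG dinucleotides. Both strands were searched for each motif, and none of the matches overlapped. CCAAT, or ATTGG on the other strand, was met 2 times, starting 212 and 151 bases before the transcript start, and 37.5% of all windows held it. GGGCGG, or CCGCCC, was met 1 time, starting 27 bases before the start, and 33.1% of all windows held it. The E-box CACGTG, the core of the carbohydrate response element, was met 0 times and was held by 6.42% of windows. The cAMP response element TGACGTCA (1.83% of windows) and the TATA box TATAAA or TTTATA (14.2%) were also met 0 times. These are matches of letters in a single window, and the annotation of Sort1 also lists a start farther upstream.

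Log2 signals of 36685 probe sets were given for each array, running from 2.23 to 13.21, with array medians between 4.73 and 4.80. Replicate 1 of 11.2 mM stood apart, differing from each other array by a mean absolute log2 difference of 0.213 to 0.246, where the other pairs differed by 0.172 to 0.195. Limma with Benjamini-Hochberg adjustment called 0 of the 36685 probe sets, a share of 0.0%, with a lowest adjusted p of 0.218. At an unadjusted p under 0.05 the fit held 3344 probe sets, or 9.12%. The number of arrays limits the precision, and the median SE of a log2 difference was 0.12. Of the beta cell markers, 11 of 16 were measured, all 11 with a mean signal at or above the median of 4.76, among them Iapp, the amyloid peptide of beta cells, at 12.33 to 12.57 and the glucose transporter Slc2a2 at 12.16 to 12.34. Of the 11, 7 were lower and 1 higher at 22.4 mM without overlap, with a median log2 difference of -0.19, and the part of this in the results for Insrr and Sort1 was not tested. Ins2 (-1.84), Kcnj11 (-0.62), a subunit of the ATP-sensitive potassium channel, and Mafa (-0.57), a factor that drives insulin genes, were the 3 with an unadjusted p under 0.05, with Mafa at -0.37 when replicate 1 of 11.2 mM was left out. Of all 14557 genes, 21.5% were higher and 23.1% lower at 22.4 mM without overlap, and at that unadjusted p 4.71% were higher and 4.88% lower. Gcg, the glucagon gene of alpha cells, was also bright, at 11.07 to 11.24 over the 4 arrays, and differed by -0.048 between groups. The other 6 measured markers of other islet cells and all 7 immune markers had mean signals under that median, while 1 of 8 acinar and ductal markers and 3 of 7 stromal and endothelial markers reached it.

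Insrr was the more shifted of the pair and lay far lower in high glucose. Its log2 signal was 8.11 and 8.10 on the 11.2 mM arrays and 6.61 and 6.73 on the 22.4 mM arrays. The groups did not overlap, and the gap of 1.37 between them was wider than the distance of 0.0054 between the 11.2 mM arrays and of 0.117 between the 22.4 mM arrays. Means were 8.10 ± 0.0038 (SD, n = 2) and 6.67 ± 0.083 (SD, n = 2), a difference of -1.44 (SE 0.10), or 2.70-fold lower. Each of the pairings of a 22.4 mM array with an 11.2 mM array gave a difference between -1.50 and -1.37. Among the 8544 genes with a mean signal at or above the median of all probe sets, 10 differences were as negative as that of Insrr or more so, its own included.

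Sort1 was lower by a smaller amount and its replicates were also close. Its log2 signal was 8.17 and 8.12 at 11.2 mM and 7.36 and 7.38 at 22.4 mM. All arrays of one glucose level again lay together, with a gap of 0.739 between the groups against distances of 0.0575 and 0.0212 within them. Means were 8.14 ± 0.041 (SD, n = 2) and 7.37 ± 0.015 (SD, n = 2), a difference of -0.78 (SE 0.095), or 1.71-fold lower. Pairings of single arrays gave differences between -0.82 and -0.74. By the same ranking over 8544 genes, 73 differences were at least as negative as that of Sort1.

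These values describe the contrast by which both genes were chosen, so no test is attached to them and they support nothing further. A lack of overlap between the groups was met in 40.6% of all probe sets and in 44.6% of the 14557 genes. Replicate 1 of 11.2 mM, which stood apart over the whole array, lay within 0.06 of its replicate in both genes, and without it the differences were -1.43 for Insrr and -0.75 for Sort1. RNA came from whole cultures, so fewer cells carrying a transcript and less of it per cell cannot be told apart.

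**Figure D1:**
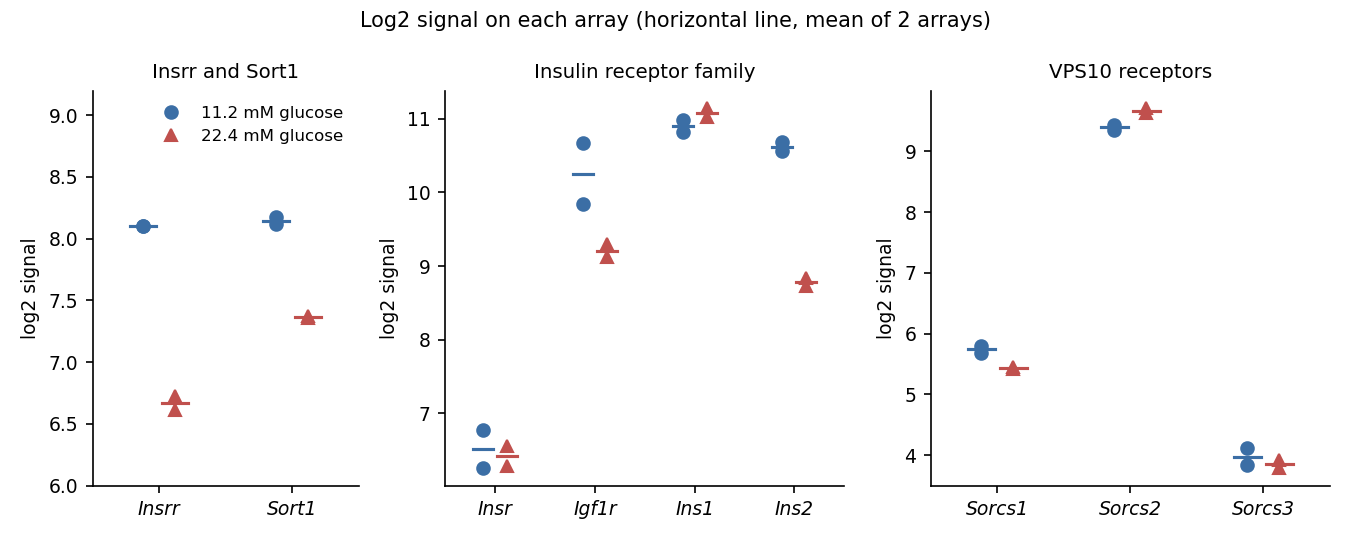
Log2 signal on each array (points; circles 11.2 mM, triangles 22.4 mM glucose; lines, means of 2 arrays) of Insrr and Sort1, of the measured relatives and ligands of the insulin receptor family, and of the other measured VPS10 receptors. Insrr lies at 8.10 to 8.11 in 11.2 mM and 6.61 to 6.73 in 22.4 mM glucose, while Insr overlaps between the groups; signals of different genes are not comparable in level.

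The relatives of Insrr did not share a single pattern. Insr, the insulin receptor itself, had 6.77 and 6.26 at 11.2 mM and 6.56 and 6.28 at 22.4 mM. These groups overlapped, the difference was -0.095 (SE 0.21), and it turned to 0.16 without replicate 1 of 11.2 mM and to 0.044 without replicate 2 of 22.4 mM. Igf1r, the receptor of insulin-like growth factor 1, had 10.66 and 9.85 at 11.2 mM and 9.30 and 9.12 at 22.4 mM. Both 22.4 mM arrays were the lower ones, with a difference of -1.04 (SE 0.29; limma adjusted p = 0.441), but the 11.2 mM arrays lay 0.82 apart. Leaving out the first of these arrays gave an Igf1r difference of -0.64, and leaving out the second gave -1.45. Insrr, chosen by its difference on these same arrays, had 11.2 mM arrays that nearly coincided. Whether probes of related receptors share signal was not tested.

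The ligands of the family lay on opposite sides of 0. Ins2, 1 of the pair of rat insulin genes, differed by -1.84 (SE 0.11) and Ins1, the other, by 0.18 (SE 0.11), with Igf1 and Igf2 not analysed here. Among proteins that bind insulin-like growth factors, 8 of 9 listed genes were measured, and 5 were higher at 22.4 mM without overlap and 0 lower, where 21.5% of all genes were so higher. Of the 8, 0 had an unadjusted p under 0.05, and with quantile normalization or centred arrays 4 were higher without overlap. Igfbp3, the main carrier of these factors in blood, had 7.81 and 8.26 at 11.2 mM and 8.33 and 8.43 at 22.4 mM. Igfbp7, a secreted relative, had 10.92 and 11.00 against 11.06 and 11.17. Both differences, 0.34 (SE 0.18) and 0.16 (SE 0.10), were small beside that of Insrr, and without replicate 1 of 11.2 mM that of Igfbp3 was 0.12. The median of this list was 0.10, against -0.0038 over all 14557 genes.

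Genes that carry the signal of insulin receptors inside the cell were spread about 0. Of the 46 listed, 37 were measured, with a median log2 difference of 0.025. The groups did not overlap in 13 higher and 9 lower genes, or 22 of 37, and the fit placed 3 higher and 4 lower under an unadjusted p of 0.05. Over all 14557 genes, 44.6% did not overlap, 21.5% higher and 23.1% lower. The unadjusted shares over all genes were 4.71% higher and 4.88% lower. Limma called 0 of the 37 after adjustment over all probe sets.

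The genes named here were those with the largest differences on each side. Sh2b2, an SH2 adaptor that binds the insulin receptor, had 6.86 on both 11.2 mM arrays and 7.33 and 7.40 at 22.4 mM. Shc2, a member of the Shc adaptors, had 9.38 and 9.54 at 11.2 mM and 9.93 and 9.99 at 22.4 mM. Their differences were 0.51 (SE 0.096) and 0.50 (SE 0.11). On the lower side, Foxo1 and Foxo3 are forkhead factors that insulin signalling holds out of the nucleus. Foxo1 had 9.37 and 9.11 at 11.2 mM and 8.76 and 8.70 at 22.4 mM, a difference of -0.51 (SE 0.13). Foxo3 had 8.88 and 8.61 against 8.27 and 8.41, a difference of -0.40 (SE 0.14), which was -0.27 without replicate 1 of 11.2 mM. Irs2, a docking protein of the insulin receptor, Pik3ca and Socs1 were chosen after their values were seen. Irs2 and Pik3ca were also lower without overlap, with differences of -0.31 and -0.30. Socs1 was higher without overlap, with a difference of 0.39. Unlike Insrr, these genes differed by at most 0.51 in size.

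Insrr was lower by more than any other of the 41 measured receptor tyrosine kinases, of 58 listed, as its choice from this contrast makes likely. Of the other 40 receptors, 8 were higher and 9 lower at 22.4 mM without overlap, where all genes gave 21.5% and 23.1%. Their median was -0.067. The fit placed 0 higher and 4 lower under an unadjusted p of 0.05, against 4.71% and 4.88% of all genes. Limma called 0 of the 40 after adjustment. The range ran from -1.04 for Igf1r to 0.33 for Ror1, a receptor for Wnt5a, so 0 of the 40 reached the size of Insrr in either direction. Met, the receptor of hepatocyte growth factor, had 9.07 and 8.10 at 11.2 mM and 7.90 and 7.98 at 22.4 mM. Its difference of -0.65 (SE 0.33) became -0.16 with replicate 1 of 11.2 mM left out and -1.13 with replicate 2 left out. Met was not among the 4 under that unadjusted p, which were Igf1r, Fgfr4, Mertk and Ret. Fgfr4, Mertk and Ret, picked after their values were seen, differed by -0.51, -0.55 and -0.38. Leaving out each array in turn gave -0.57 to -0.45 for Fgfr4, -0.76 to -0.34 for Mertk and -0.48 to -0.29 for Ret. Ror1 had 7.56 and 7.87 at 11.2 mM and 7.97 and 8.11 at 22.4 mM, and the difference was 0.17 without replicate 1 of 11.2 mM. Epha8, an ephrin receptor, had 6.45 and 6.53 against 6.67 and 6.75, a difference of 0.22 (SE 0.10). Mean signals of 20 of these 40 receptors were below the overall median, where a difference can be understated. The median of the list turned to 0.016 without replicate 1 of 11.2 mM.

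Transport of bicarbonate and protons was listed because Insrr responds to alkaline medium. Of 35 genes, 26 were measured, 12 higher and 4 lower at 22.4 mM without overlap, where all genes gave 21.5% and 23.1%. Their median was 0.098, with 2 higher and 0 lower under an unadjusted p of 0.05, against 4.71% and 4.88% of all genes. The pair that differed most were sodium bicarbonate cotransporters, which bring bicarbonate into the cell. Slc4a4 had 8.84 and 8.86 at 11.2 mM and 9.35 and 9.36 at 22.4 mM, and Slc4a7 had 7.70 and 7.52 against 8.17 and 8.05. Each differed by 0.50 (SE 0.093 and 0.12), in the direction opposite to Insrr, with limma adjusted p of 0.308 and 0.379. The anion exchangers Slc4a3 and Slc26a6 differed by -0.11 (SE 0.10) and -0.098 (SE 0.10), or as little as -0.037 and -0.040 with 1 array left out. Only 9 of the 26 had a mean signal at or above the median of all probe sets.

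**Figure D2:**
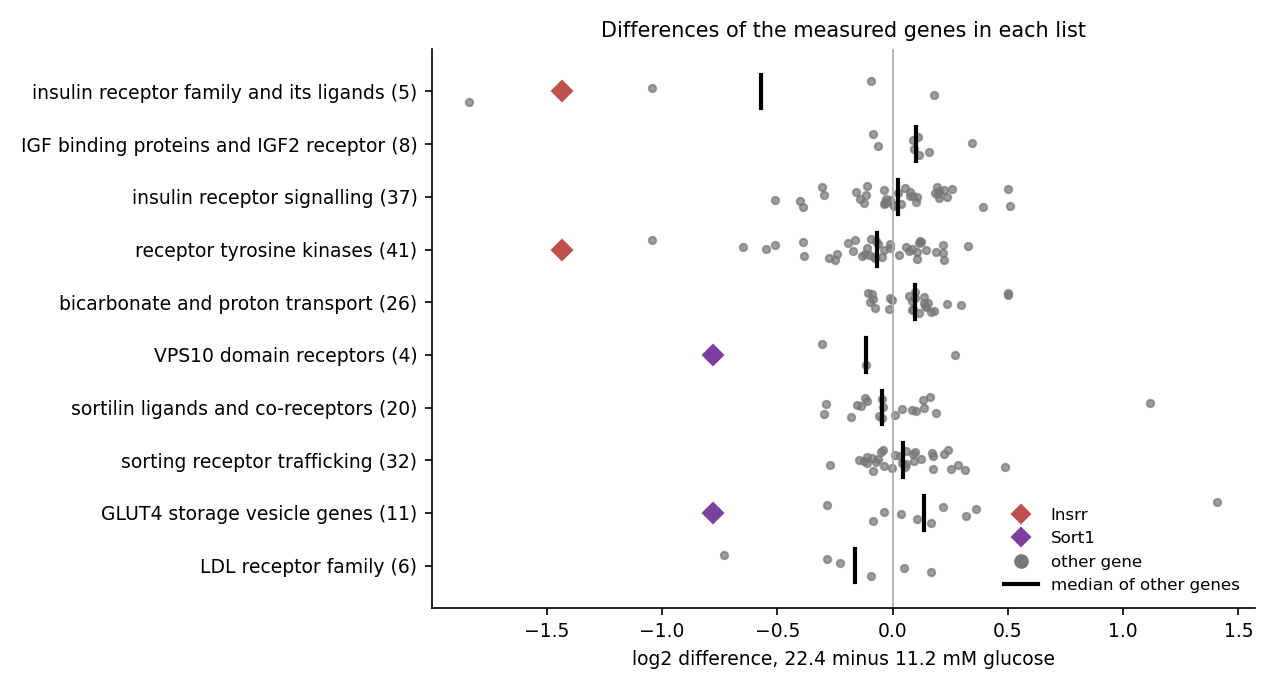
Log2 difference, 22.4 minus 11.2 mM glucose, of every measured gene in each list (grey points; number measured in brackets), with the median of the genes other than Insrr and Sort1 (black bar) and with Insrr and Sort1 as diamonds. Insrr at -1.44 and Sort1 at -0.78 lie to the left of nearly all other genes of their lists, as their choice by this contrast makes likely. Medians of the other genes run from -0.57 to 0.14, and vertical position within a list has no meaning.

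The VPS10 receptors other than Sort1 showed both directions. Of the 5 genes of this family, 4 were measured and Sorl1 was not analysed here. Sorcs1, a receptor whose locus has been tied to diabetes in mice, had 5.80 and 5.69 at 11.2 mM and 5.42 and 5.45 at 22.4 mM. The 22.4 mM arrays were again the lower ones, with a difference of -0.31 (SE 0.10; limma adjusted p = 0.490). Sorcs2, which binds proneurotrophins in neurons, went the other way, with 9.35 and 9.44 at 11.2 mM and 9.70 and 9.63 at 22.4 mM, a difference of 0.27 (SE 0.10). Sorcs3, a neuronal receptor, was dim at 4.12 and 3.84 against 3.93 and 3.80, and its groups overlapped. Sort1 was thus the most shifted of the 4, which its selection makes likely.

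Among ligands and partner receptors of sortilin, the most shifted was Ngfr, the p75 neurotrophin receptor that takes up proneurotrophins together with sortilin. Its log2 signal was 5.13 and 5.82 at 11.2 mM and 6.46 and 6.72 at 22.4 mM. Both 22.4 mM arrays were higher, opposite to Sort1, with a difference of 1.12 (SE 0.26; limma adjusted p = 0.377), with 0.77 to 1.46 when an 11.2 mM array was left out. At 11.2 mM Ngfr lay not far above the median signal of 4.76, with no measure of background given, so the size is not exact.

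Cargo proteins that sortilin takes to lysosomes gave small differences in both directions, none called by limma. Grn, which encodes progranulin, had 10.90 and 10.74 at 11.2 mM and 10.50 and 10.57 at 22.4 mM, a difference of -0.29 (SE 0.11). The lysosomal protease Ctsd had 10.69 and 10.39 against 10.20 and 10.29, a difference of -0.30 (SE 0.14), which was -0.15 without replicate 1 of 11.2 mM. Smpd1, the acid sphingomyelinase, lay higher, with 7.93 and 8.01 against 8.12 and 8.20. Of the 27 listed genes 20 were measured, with a median of -0.043 that turned to 0.050 without replicate 1 of 11.2 mM. Of the 20, 6 were higher and 5 lower at 22.4 mM without overlap, where all genes gave 21.5% and 23.1%. Limma called 0 of the 20.

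Genes of the machinery that moves sortilin were all bright, with differences from -0.27 to 0.49. Of 41 listed, 32 were measured, 10 higher and 8 lower at 22.4 mM without overlap, where all genes gave 21.5% and 23.1%. The list median of 0.047 turned to -0.0065 without replicate 1 of 11.2 mM. Furin, the protease that removes the propeptide of sortilin, had 8.16 and 8.32 at 11.2 mM and 8.44 and 8.52 at 22.4 mM. The adaptors Gga1 and Gga2, which bind the tail of sortilin at the trans-Golgi network, had overlapping groups, with differences of -0.043 and 0.057. Furin, Gga1 and Gga2 were picked out for this role after their values were seen.

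Retromer is the complex that returns sortilin from endosomes, and its measured core subunits lay on both sides of 0. Vps35 had 10.53 and 10.47 at 11.2 mM and 10.38 and 10.33 at 22.4 mM, a difference of -0.14 (SE 0.096). Vps29 differed by -0.13 and Vps26b by 0.095, both without overlap and both named after their values were seen. Tbc1d5, a regulator of retromer, had 7.94 and 7.99 against 7.75 and 7.63, a difference of -0.27 (SE 0.10). Higher were Vps36, a subunit of the ESCRT complex that sorts receptors to lysosomes, and M6pr, a mannose 6-phosphate receptor that shares its route with sortilin. Vps36 had 8.69 and 8.87 at 11.2 mM and 9.25 and 9.28 at 22.4 mM, a difference of 0.49 (SE 0.11). M6pr had 8.74 and 9.04 against 9.16 and 9.24, a difference of 0.31 (SE 0.14) that was 0.16 without replicate 1 of 11.2 mM.

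Sort1 and the gene of the transporter whose vesicles it helps to form lay on opposite sides. Slc2a4, which encodes GLUT4, the insulin-responsive glucose transporter of fat and muscle, had 6.11 and 6.50 at 11.2 mM and 7.63 and 7.79 at 22.4 mM. Both 22.4 mM arrays lay above both 11.2 mM arrays, with a difference of 1.41 (SE 0.17), or 2.66-fold higher. Its limma adjusted p over all probe sets was 0.252, and over the alternatives tried it ranged from 0.0347 to 0.827. Tbc1d1, a Rab regulator of GLUT4 traffic, had 8.26 and 8.40 at 11.2 mM and 8.67 and 8.73 at 22.4 mM, a difference of 0.36 (SE 0.11). Of the 10 measured genes of these vesicles other than Sort1, 6 were higher and 0 lower without overlap, with a median of 0.14, and 3 of the 6 had an unadjusted p under 0.05. Over all genes the shares were 21.5% higher and 23.1% lower without overlap, and 4.71% higher at that p. Sort1 was the 1 gene of the 11 that was lower at 22.4 mM without overlap, and it was chosen by this same contrast.

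**Figure D3:**
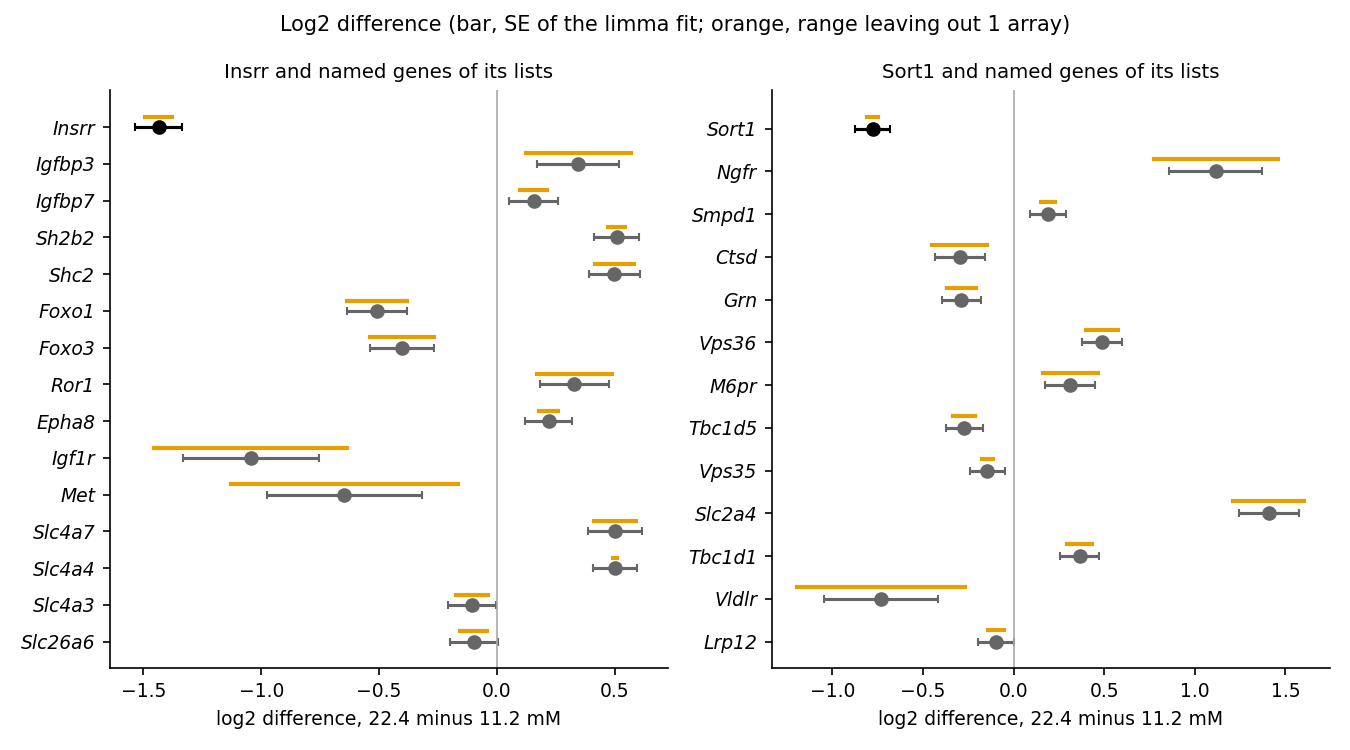
Log2 difference, 22.4 minus 11.2 mM glucose, of Insrr, Sort1 and the genes named from their lists (points; bars, SE of the limma fit; orange lines, range when each array in turn was left out). Insrr (-1.49 to -1.38) and Sort1 (-0.81 to -0.75) have narrow ranges, while Igf1r (-1.45 to -0.64), Met and Vldlr have wide ones. Insrr and Sort1 were chosen on these same arrays, so their narrow ranges support nothing further.

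Over the 10 lists together, 182 genes other than Insrr and Sort1 were measured. At an unadjusted p under 0.05 there were 11 higher and 12 lower, where all genes gave 4.71% and 4.88%. Without overlap 62 were higher and 40 lower, where all genes gave 21.5% and 23.1%. When only the 14824 probe sets with a single symbol were fitted, limma called 62, or 0.418%, and 2 of these were among the 182, Slc2a4 and Ins2.

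The genes whose pattern over the 4 arrays was most like that of Insrr were searched among 8543 others with a mean signal at or above the median. Likeness was the Euclidean distance between log2 values after each gene's own mean was taken off. The 5 nearest were Pcp4l1, a relative of the calmodulin regulator Pcp4, at a distance of 0.151, the vitamin D receptor Vdr at 0.233, the monoamine oxidase Maob at 0.313, the secreted BMP antagonist Nbl1 at 0.343 and the MAP kinase phosphatase Dusp10 at 0.348. Pcp4l1 had 7.46 and 7.63 at 11.2 mM and 6.13 and 6.26 at 22.4 mM. All 5 were lower at 22.4 mM, by construction of the search, with differences from -1.64 for Vdr to -1.14 for Maob.

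The neighbours of Sort1 in pattern were closer. They were Kcnh3, a voltage-gated potassium channel, at 0.0457, Cnnm2, a membrane protein of magnesium transport, at 0.0687, the lipase Abhd16a at 0.0781, the membrane protein Ms4a8 at 0.0965 and the actin-binding protein Synpo2 at 0.0969. Kcnh3 had 6.49 and 6.40 at 11.2 mM and 5.69 and 5.73 at 22.4 mM, nearly parallel to Sort1. Differences of the 5 ran from -0.87 for Synpo2 to -0.70 for Ms4a8. With 4 arrays in 2 groups, a small distance says mainly that the sizes of the difference are alike. Differences at least as negative numbered 73 for Sort1 and 10 for Insrr, so more genes could lie near Sort1.

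**Figure D4:**
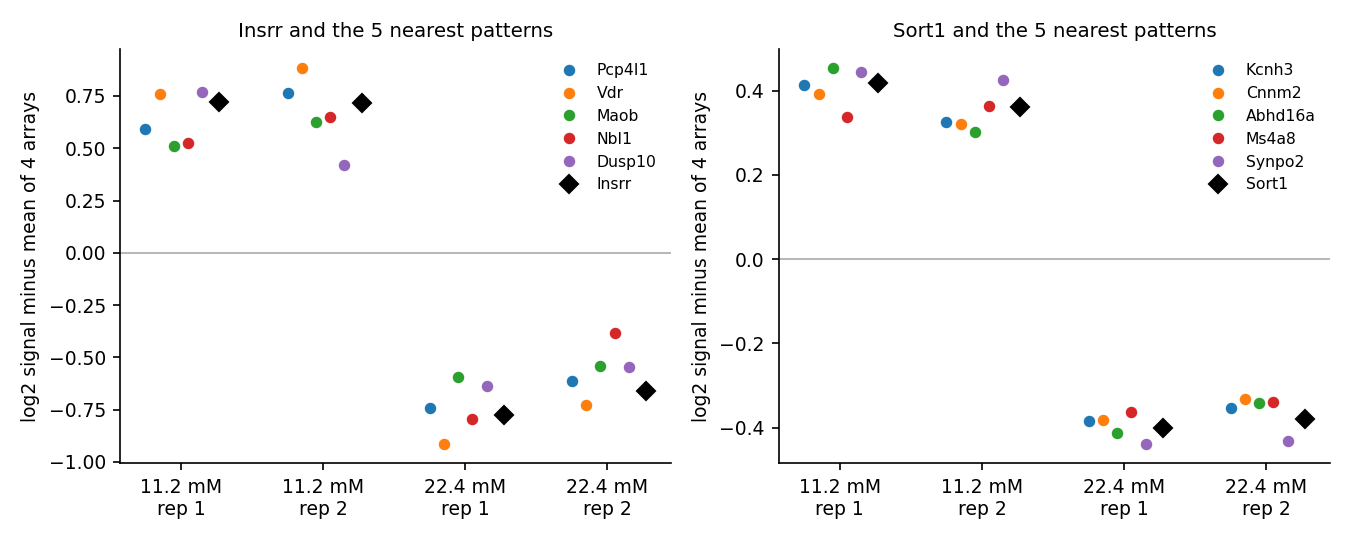
Log2 signal on each array minus the gene's mean over the 4 arrays, for Insrr (left) and Sort1 (right), both as black diamonds, and the 5 genes nearest to each in pattern (coloured points, set side by side; the vertical scales differ). The points lie closer together around Sort1 (distances 0.0457 to 0.0969) than around Insrr (0.151 to 0.348). More genes had a difference as negative as that of Sort1 than as that of Insrr.

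Both genes lie on rat chromosome 2 in the RefSeq table, and the 3 nearest protein-coding genes on each side were compared with them. Around Insrr, 5 of 6 were analysed. Groups overlapped in Lrrc71, Pear1, Sh2d2a and Prcc, whose differences lay between 0.051 and 0.10. Hdgf, a growth factor, had 9.91 and 10.23 at 11.2 mM and 10.25 and 10.29 at 22.4 mM, a difference of 0.19 (SE 0.14) that was 0.033 without replicate 1 of 11.2 mM. The mean difference of all 5 was positive, where that of Insrr, chosen by this contrast, was negative. However, Pear1, Sh2d2a and Prcc turned to between -0.078 and -0.0047 with some array left out.

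Around Sort1, 4 of 6 neighbours were analysed. Celsr2, a cadherin, had 6.53 and 6.66 at 11.2 mM and 6.28 and 6.27 at 22.4 mM, a difference of -0.32 (SE 0.10; limma adjusted p = 0.48), and was the 1 neighbour lower without overlap, as Sort1 was. Psma5, a proteasome subunit, and Mybphl, a relative of myosin-binding proteins, differed by 0.092 and -0.13 with overlapping groups. Psrc1, a spindle protein, had 6.91 and 7.76 at 11.2 mM and 7.62 and 8.06 at 22.4 mM, also overlapping, and its difference of 0.50 (SE 0.32) was 0.083 without replicate 1 of 11.2 mM.

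**Figure D5:**
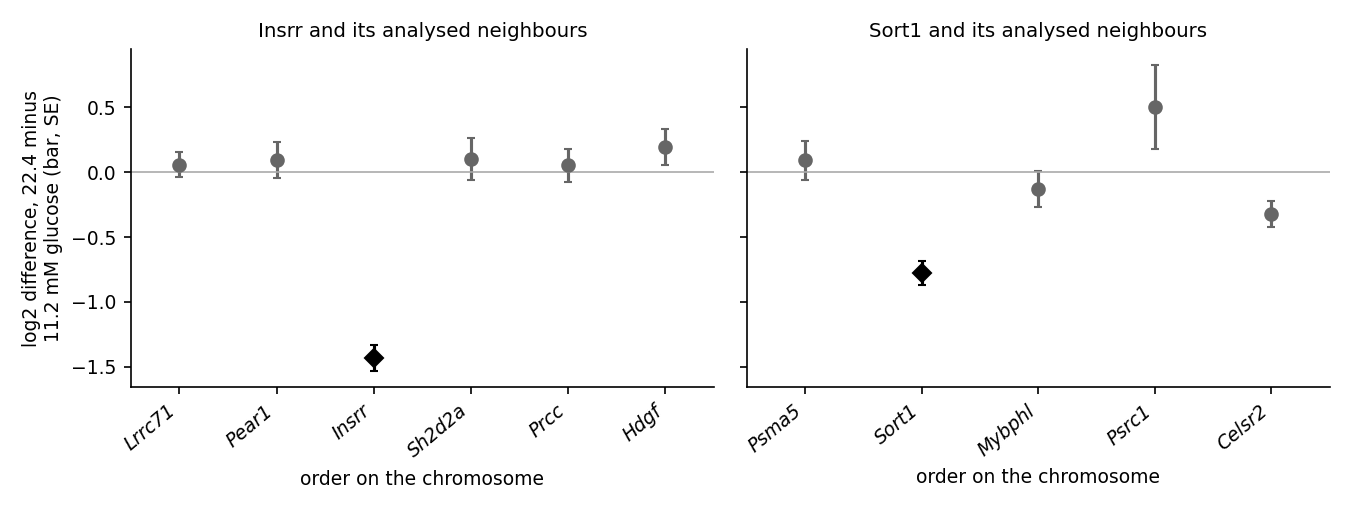
Log2 difference, 22.4 minus 11.2 mM glucose, of Insrr and Sort1 (diamonds) and of those of the 3 nearest protein-coding genes on each side that were analysed, in chromosome order (points; bars, SE of the limma fit). Both receptors lie below all of their measured neighbours, which their choice by this contrast makes likely. Celsr2 at -0.32 comes nearest to Sort1.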

How the data were processed

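The authors deposited 1 table of log2 values for 36685 probe sets on 4 arrays; base 2 was inferred from its range, and no source used here gives the background correction, normalization or software. Per the labels' protocols, total RNA was amplified and hybridized as labelled single-stranded cDNA on Affymetrix arrays. Values were used as deposited, with 0 columns left out. The platform annotation gave 14824 probe sets 1 symbol, 829 several and 21032 none; the brightest probe set stood for each gene. The 22.4 mM arrays were set against the 11.2 mM arrays in R 4.3.3 by lmFit and eBayes of limma 3.58.1 (two-sided, 2 residual degrees of freedom), with Benjamini-Hochberg adjustment over all probe sets and a call at 0.05. The code was tested on simulated data. Promoters are RefSeq's, build GRCr8; no source used here gives the build behind the array, and gene coordinates are left out.

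Insrr, Sort1 and the 10 lists (248 genes, 184 measured) were chosen with earlier results of these data known. Genes named from a list were up to 2 higher and 2 lower with the largest differences, without overlap and with a mean at or above the median signal of 4.76; the family lists were named in full. The 5 nearest patterns and 3 neighbours on each side were also named. Genes named by other choices are the cell type markers and those said to have been picked afterwards. Same-numbered replicates did not deviate together (correlation -0.078), so they were not treated as pairs. Arrays left out in turn, normalization, a replicate block, other probe set filters and other variance settings were tried as alternatives.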

Additional observations from a re-analysis of the deposited data

How the results depend on the processing

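Insrr and Sort1 had differences from -1.49 to -1.38 and from -0.81 to -0.75 when each array in turn was left out. Their groups did not overlap, so leaving out an array could not turn the sign. Under the other alternatives tried they also kept their direction. With the replicate block the differences were -1.44 and -0.78, unchanged because the block is balanced over the groups. Limma then called 0 probe sets, and no call was changed by the block. Each gene has 1 probe set, so averaging probe sets gave no separate value. With all arrays kept, the number of probe sets called was 0 in every setting but the fit of probe sets with 1 symbol, which called 62. That fit adjusted over fewer probe sets. The fit of probe sets with a mean at or above the median signal also adjusted over fewer, and it called 0. Why these fits differed in the number of probe sets called was not tested. At an unadjusted p under 0.05 there were 3344, 2114 to 5709 when an array was left out and 1912 with only 1-symbol probe sets.

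Among list medians, that of the insulin receptor family, -0.57, was -0.90 to -0.24 when an array was left out, that of receptor tyrosine kinases -0.088 to 0.016, that of bicarbonate and proton transport 0.067 to 0.14, that of VPS10 receptors -0.26 to 0.023, and that of the LDL receptor family -0.17 to -0.10. With only brighter genes the medians of receptor tyrosine kinases, VPS10 receptors and the LDL receptor family were -0.17, -0.019 and -0.095; fewer genes entered. The cause of the shifts between arrays was not tested. Of the 51 other named genes, 7 changed sign in at least 1 setting, each time with an array left out. In all 7 the groups overlapped, as they must, since groups without overlap cannot change sign that way. No source used here gives background levels, and differences from dim signals may be understated.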

Other observations

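The LDL receptor family, endocytic receptors that share ligands such as lipoprotein lipase and apolipoprotein E with sortilin, was measured in 6 of 15 listed genes. At 22.4 mM 0 were higher and 3 lower without overlap, where all genes gave 21.5% and 23.1%. The median log2 difference was -0.16, and 0 of the 6 had an unadjusted limma p under 0.05. Vldlr, the receptor of very low density lipoprotein, had log2 signals of 10.30 and 9.37 at 11.2 mM and 9.13 and 9.07 at 22.4 mM. Its difference of -0.73 (SE 0.32) became -0.27 with replicate 1 of 11.2 mM left out and -1.19 with replicate 2 left out. The difference of Sort1, a gene chosen on these same arrays, moved by less than 0.04 in either case. Lrp12, a transmembrane member of the family, had 7.57 and 7.66 against 7.49 and 7.55, a difference of -0.095 (SE 0.099) that was smaller than its error.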
